A study of Mus musculus with 144 samples.

Results

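Vehicle-treated cultures of mouse hepatocytes were compared between the 2 genotype labels. The comparison used the 32 RNA-Seq libraries of primary hepatocytes kept in DMSO vehicle for 24, 48, 72 or 120 h, which are 22.2% of a series with 4 libraries for each of 9 hours, 2 labels and 2 treatments (DMSO and TCDD). They were chosen by their labels alone: 16 carried the genotype label DRE-null (strain Pkm-delta-DRE) and 16 the label wild-type (strain C57BL/6NCrl), with 4 libraries per label and hour. All came from the livers of male mice aged 28 days, and all were cultured on type I collagen in Williams' medium with dexamethasone, which both labels shared. Per the study's methods, the mutant line lacks an intronic GCGTG motif of Pkm (the core of a dioxin response element, where the aryl hydrocarbon receptor binds), was made by CRISPR-Cas9 editing and was backcrossed to C57BL/6N. Libraries are numbered 1 to 4 within a label and hour in the order of deposit, and no label ties a number to an animal. The labels do not say that libraries of a group came from separate animals or cultures, so p-values measure the spread between libraries, which may be technical.

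Hepatocytes make most plasma proteins, and when put into culture they lose adult functions step by step. They also run the acute phase response, in which cytokine signals raise secreted proteins such as serum amyloid A (carried on high-density lipoprotein) and orosomucoid (a drug-binding plasma glycoprotein). In mouse they further secrete major urinary proteins, small carriers of pheromones that pass into urine and depend on growth hormone. Pkm encodes the pyruvate kinase of most proliferating cells and muscle, and Pklr the form typical of adult liver.

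The labels cannot be checked by the amount of Pkm mRNA in vehicle alone, because the deleted motif lies in an intron and its loss removes no counted exon. In vehicle, Pkm ran from 41.2 to 2468 CPM (gene counts scaled to equal library size) in the 16 libraries labelled wild-type and from 88.9 to 784 CPM in the 16 labelled DRE-null. Set beside the TCDD libraries of the same hours, the median Pkm level under TCDD was 1.26, 1.47, 1.19 and 1.4 times the vehicle median at 24, 48, 72 and 120 h in libraries labelled wild-type, and 3.49, 1.91, 1.44 and 1.04 times it in libraries labelled DRE-null. The larger rise was thus under the label that names the deletion at 24, 48 and 72 h, and under the label wild-type at 120 h. At 48 h, Pkm in libraries labelled DRE-null ran from 260 to 670 CPM in vehicle and from 858 to 1290 CPM under TCDD. These rises were not tested, and whether the labels are exchanged cannot be told from these counts. For this reason groups are named here by what the library was labelled.

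Library totals on genes ran from 15550949 to 30719161 counts (median 18674397), and 14150 to 23505 genes had a count. All libraries expressed albumin (Alb, 2229 to 36276 CPM), and all carried the Y-linked gene Ddx3y at 2.01 CPM or more with Xist at 0.487 CPM or less, as the label Male implies. Some libraries stood apart. The library labelled wild-type at 48 h replicate 1 held Cyp1a1, the main target gene of the aryl hydrocarbon receptor, at 3799 CPM, against 1.55 to 2.78 CPM in the other 3 of its group. Libraries labelled wild-type with TCDD ran from 3420 to 6180 CPM at that hour, while 1 such library at 72 h, replicate 4, stood at 33.7 CPM where the lowest of the other 31 TCDD libraries held 3200 CPM. Both go against their treatment labels, and whether the treatments are exchanged cannot be told from these counts. Values of wild-type 48 h replicate 1 are given below as labelled, and without it 16 genes were called higher and 36 lower in the comparison across the hours. The median correlation of a library with the others of its group was lowest, 0.698, for DRE-null 24 h replicate 4. Vimentin (Vim), a filament gene that rises as hepatocytes lose their form in culture, stood at 22.5 and 84.6 CPM in DRE-null 24 h replicates 1 and 2, against 689 to 1297 CPM in the 4 libraries labelled wild-type at that hour. In 1 fit 5 libraries were left out together: DRE-null 24 h replicate 4, 48 h replicate 2, 72 h replicate 1 and 120 h replicate 3, each with the lowest such correlation of its hour, and wild-type 48 h replicate 1. At 120 h the DRE-null libraries hardly differed in this, with replicates 3 and 4 tied at 0.891 and replicates 1 and 2 at 0.892.

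Fewer mRNAs were higher than lower in libraries labelled DRE-null. With hour as a covariate, 34 of 15884 genes tested were higher (0.214% of all) and 58 were lower (0.365% of all) by edgeR's quasi-likelihood test, where a call needed a Benjamini-Hochberg adjusted p under 0.05 and a change of 1.5-fold or more. Lower genes included 3 serum amyloid A, 3 orosomucoid and 8 major urinary protein genes, all of them secreted by liver. Among higher genes the largest difference was that of the transcription factor Atoh8, and the smallest adjusted p-values were those of Rps6-ps4 and Gm2000. The median difference over all genes was 0.00 on the log2 scale. All 34 and all 58 had the same sign at each of the 4 hours. The calls came from 1 difference fitted over these same hours, which favours equal signs, so this is no replication over hours. Sizes differed between the directions: the median absolute log2 difference was 0.91 for higher and 1.43 for lower genes. The fit with DESeq2 in place of edgeR called 214 genes, with about as many higher as lower.

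**Figure D1:**
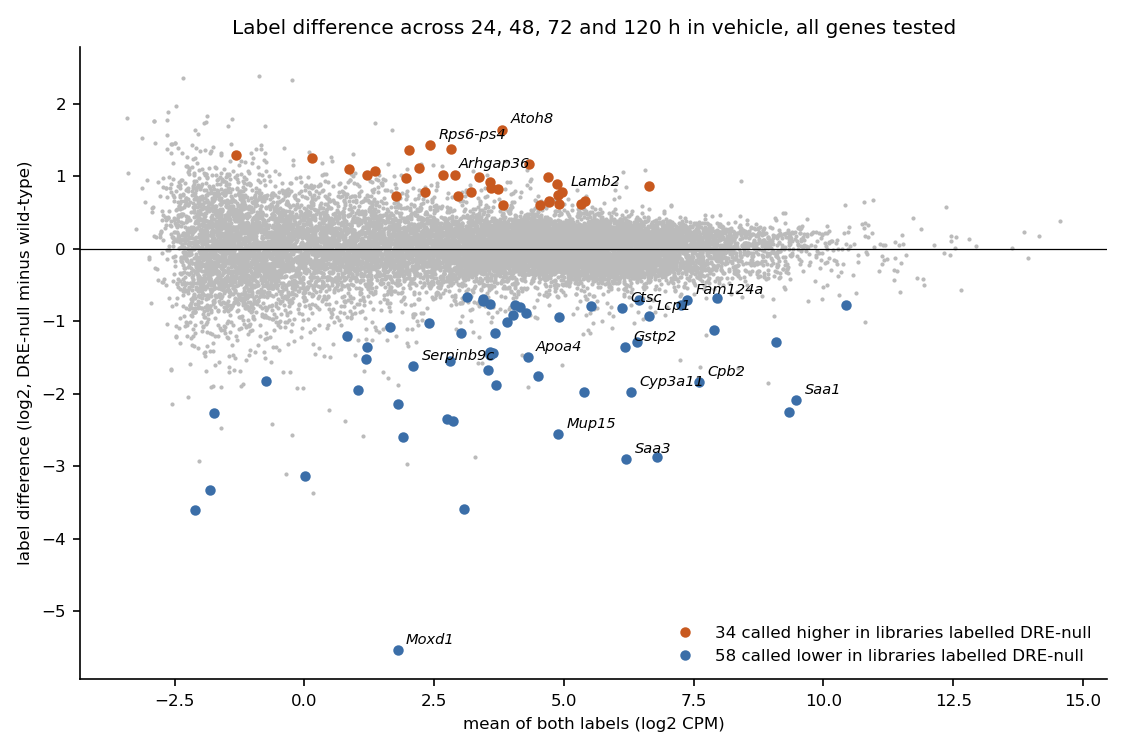
Label difference of each gene tested (y axis, log2 of libraries labelled DRE-null over libraries labelled wild-type, hour as a covariate) against its mean level in both labels (x axis, log2 CPM). Orange points are the 34 genes called higher and blue points the 58 called lower in libraries labelled DRE-null. Lower genes reach a log2 difference of -5.54 (Moxd1), while the largest positive difference among called genes is 1.65 (Atoh8).

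How far these calls rest on single libraries was checked by leaving out each of the 32 in turn. The total of 92 calls then ran from 40 to 98, and 35 genes, 14 higher and 21 lower, were called in every one of the 32 fits. The accounts below name mostly these 35, which were picked for that after their values were seen. In 18 of the 32 fits the total changed by more than 1.5 times, and it was lowest without DRE-null 48 h replicate 3 or 4 (40 each). The calls also needed all the hours: the total was 17 without 24 h, 2 without 48 h, 16 without 72 h and 18 without 120 h. Without 48 h, Rps6-ps4 and Gm2000 were the 2 genes called, so each other call described here was lost in that fit, which also has fewer libraries. Complete separation of the 4 against 4 libraries at 3 or 4 of the 4 hours was rarer: it was seen for 4 of all genes tested in the higher direction (0.0252% of all) and for 6 in the lower direction (0.0378% of all). Among called genes these were Rps6-ps4, Gm2000, Gm12191 and Arhgef17 (higher) and Serpinb9c, Cpb2, A530046M15Rik and Hcar2 (lower). In bulk RNA, fewer cells of a type and less RNA per cell cannot be told apart.

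The 16 libraries of a label may come from fewer animals than libraries. Moxd1, described below, was lowest in the library numbered 3 in 17 of the 18 wild-type groups of the series (vehicle and TCDD, all 9 hours), with 13 of these libraries at 0, and highest in the library numbered 2 in 16 of the 18. For other genes the numbers were followed less evenly: over 10926 genes, deviations from the group mean had a median correlation of 0.178 between wild-type libraries of the same number at different hours (24 pairs, -0.632 to 0.592) and 0.000526 between those of other numbers (72 pairs, -0.594 to 0.674). For the label DRE-null the medians were 0.202 (-0.63 to 0.824) and -0.0448 (-0.851 to 0.871). The ranges of the same and other numbers thus overlapped widely under both labels. When libraries of the same label and number were summed over the 4 hours, leaving 4 against 4 samples, edgeR called 0 genes higher and 0 lower, with 1070 of 17414 at an unadjusted p under 0.05 and a lowest adjusted p of 0.0788 (Gstp2). All 91 of the 92 called genes that could be tested in the sums kept their sign and had an unadjusted p under 0.05. The sums hold the same libraries in which these genes were called, so this was nearly given and is no separate check. limma-voom called 20 genes higher and 43 lower across the 32 libraries, and with the number within a label as a random block it called 2 higher (Rps6-ps4 and Gm2000) and 3 lower (Mup15, Serpinb9c and the pseudogene Gm5828). The adjusted p-values of the accounts that follow treat libraries as independent, and are too small where libraries share an animal. Where the accounts list settings that lost a call, the sums and the random block are left out unless named. No call held in the sums, and only Rps6-ps4, Gm2000, Mup15, Serpinb9c and Gm5828 held theirs with the random block. These fits were chosen after seeing the data.

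Serum amyloid A was 1 of the groups among lower genes, with 3 of its 4 members tested called lower. Because Saa1, Saa2 and Saa3 moved together, their promoters are shown here, taken from RefSeq on GRCm38.p6 (the deposited counts follow GRCm39), as the 250 bases before each start site, read 5′ to 3′ on the gene's strand. Saa1 is at chr7:46742981-46743230 (minus strand), Saa2 at chr7:46751583-46751832 (plus strand) and Saa3 at chr7:46715677-46715926 (minus strand). Capitals mark each match to TTNNNCAA, a spelling of the site of C/EBP factors (liver activators of acute phase genes), searched on both strands.
Saa1: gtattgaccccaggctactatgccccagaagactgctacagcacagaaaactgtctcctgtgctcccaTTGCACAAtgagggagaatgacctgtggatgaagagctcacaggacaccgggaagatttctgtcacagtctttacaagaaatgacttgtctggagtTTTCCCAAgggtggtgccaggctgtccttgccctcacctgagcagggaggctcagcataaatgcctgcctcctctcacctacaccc
Saa2: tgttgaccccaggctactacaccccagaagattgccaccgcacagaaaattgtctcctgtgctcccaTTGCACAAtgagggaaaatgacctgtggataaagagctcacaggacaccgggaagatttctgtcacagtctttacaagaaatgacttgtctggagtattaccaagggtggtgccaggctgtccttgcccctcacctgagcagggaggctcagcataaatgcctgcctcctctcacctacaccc
Saa3: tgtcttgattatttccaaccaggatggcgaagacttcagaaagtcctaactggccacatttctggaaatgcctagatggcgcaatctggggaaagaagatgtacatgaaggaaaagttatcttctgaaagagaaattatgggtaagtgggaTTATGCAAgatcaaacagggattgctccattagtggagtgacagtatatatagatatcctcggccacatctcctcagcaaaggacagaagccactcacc

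The Saa1 window held 2 such matches and those of Saa2 and Saa3 held 1 each. A match occurs in 33.3% of the 32851 RefSeq promoter windows of that length, so its presence is a description only. GCGTG, the letters of the deleted Pkm motif, had no match in these 3 windows and occurs in 28.2% of all. The windows of Saa1 and Saa2 were identical at 238 of 251 aligned positions (94.8%). Their transcripts are close copies too, so the split of counts between Saa1 and Saa2 is uncertain, since read pairs that fit both equally are not counted.

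Saa1, the main circulating acute phase form, was lower in libraries labelled DRE-null. At 24 h its CPM was 5563, 6060, 458 and 1873 in the 4 libraries labelled wild-type and 797, 359, 283 and 585 in the 4 labelled DRE-null. At 48 h the values were 2066, 2264, 333 and 420 against 199, 149, 242 and 334. At 24 h and 48 h, wild-type replicates 1 and 2 were far above the rest, while replicate 3 lay within the DRE-null range at 24 h and just under its highest library at 48 h. By 72 h the labels overlapped, with 63.2, 91.9, 87.7 and 151 CPM in libraries labelled wild-type and 13, 77.6, 62.1 and 86.5 CPM in those labelled DRE-null. At 120 h every library labelled wild-type was above every library labelled DRE-null, at 8.77, 81.6, 20.6 and 9.98 against 6.16, 5.77, 4.72 and 7.47 CPM. Across the hours the log2 difference was -2.09 ± 0.38 (SE, adjusted p = 0.00711), with levels 4.26-fold higher under the label wild-type. The call held in all 32 fits without 1 library (-2.19 to -1.81). It was lost without 24, 48 or 120 h, with the 96 h libraries added and without those 5 libraries, with log2 differences from -2.53 to -1.38 over the 14 other settings.

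Saa2, its neighbour and near copy, gave nearly the same values, with a log2 difference of -2.25 ± 0.46 (SE, adjusted p = 0.0142) and the call lost in the same 5 settings. Saa3 is the form made by liver and by macrophages and fat cells. At 24 h its CPM was 373, 413, 16.7 and 63.9 in libraries labelled wild-type and 71.2, 23.8, 20.9 and 40.7 in those labelled DRE-null. At 48 h it was 192, 213, 523 and 19.4 against 33.6, 15.8, 26.2 and 24.7 CPM. Wild-type replicates 1 and 2 were the highest at 24 h, as for Saa1, and were again far above replicate 4 at 48 h. Replicate 3, the lowest of its label at 24 h for both genes, was the highest for Saa3 at 48 h and the lowest for Saa1. At 120 h Saa3 was at 5.11, 16, 94.8 and 1.8 against 2.11, 1.57, 2.29 and 1.03 CPM, again with replicate 3 the highest. The log2 difference of Saa3 was -2.90 ± 0.49 (SE, adjusted p = 0.00335), and of the 46 settings that did not use the library number its call was lost only without 48 h (adjusted p = 0.263 by limma-voom with the random block).

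**Figure D2:**
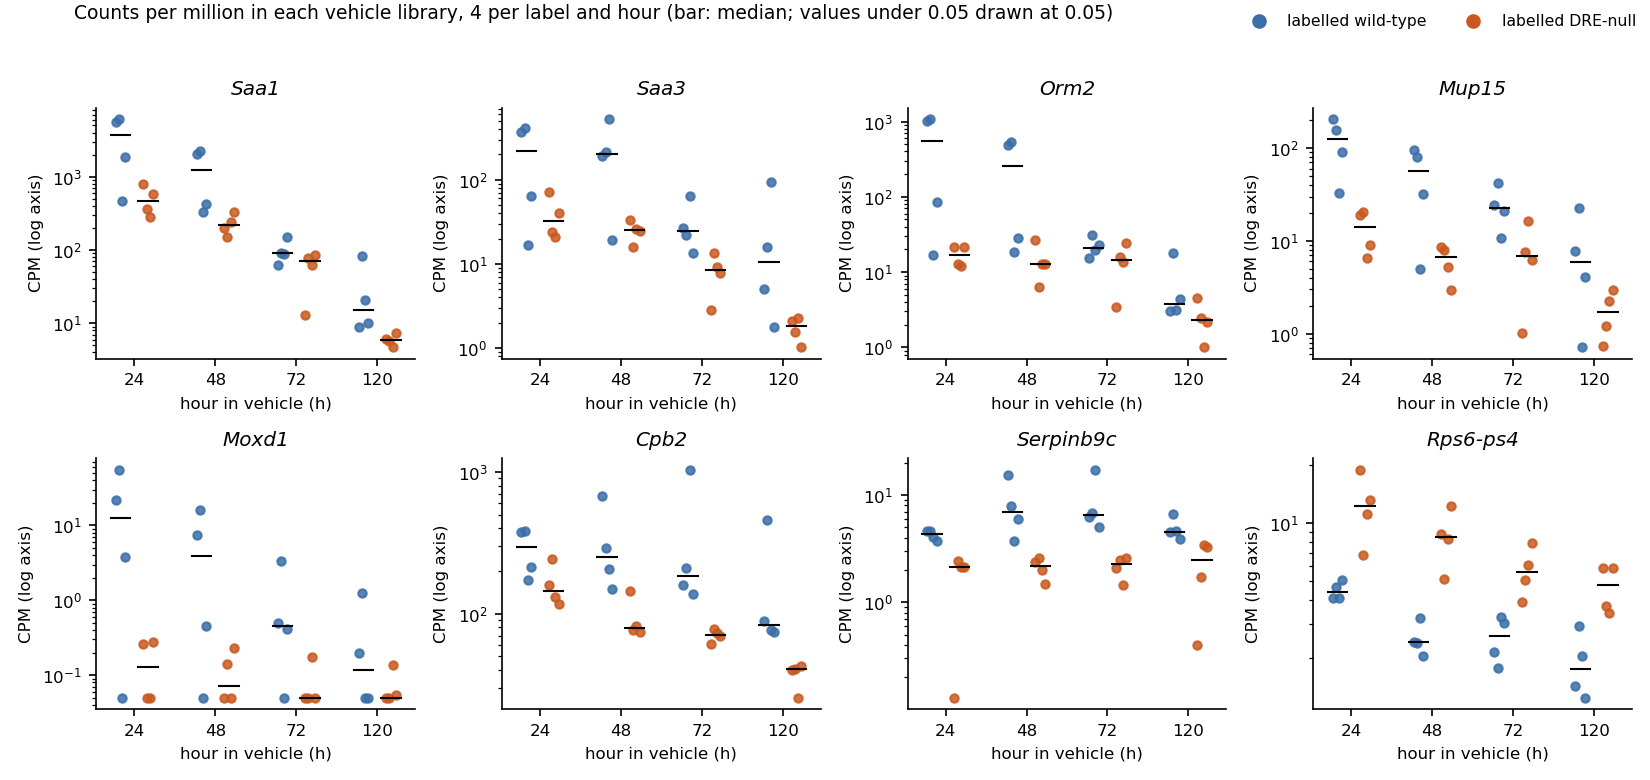
CPM on a log axis (y) by hour in vehicle (x) for 8 genes, 1 point per library, with blue for libraries labelled wild-type, orange for libraries labelled DRE-null and a bar at each group's median. Values under 0.05 CPM are drawn at 0.05 CPM. For Saa1 and Orm2 a pair of wild-type libraries stands high at 24 and 48 h, whereas for Serpinb9c and Rps6-ps4 the labels do not overlap at any of the 4 hours.

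The orosomucoids are a second group of acute phase plasma proteins, and all 3 of the genes tested were called lower. At 24 h Orm2 had 1023, 1070, 17.1 and 86.1 CPM in libraries labelled wild-type and 21.6, 12.6, 12 and 21.4 CPM in those labelled DRE-null. At 48 h it had 483, 534, 18.7 and 28.6 against 26.5, 6.27, 12.7 and 12.8 CPM. The same wild-type libraries, replicates 1 and 2, that were high for Saa1 were high for Orm2, and replicate 3 lay in the range of the DRE-null libraries at both hours. Orm2 differed by -2.88 ± 0.65 on the log2 scale (SE, adjusted p = 0.0297). That call was lost in 6 of the 32 fits without 1 library, those without wild-type 120 h replicate 2 or DRE-null 24 h replicate 1 or 4 or 48 h replicate 1, 3 or 4, while the difference stayed between -3.04 and -2.66. It was also lost without 24, 48 or 120 h, with no filter on low counts and without those 5 libraries. Orm1 (log2 difference -1.28, adjusted p = 0.0454) lost its call in 21 of the 32 and is uncertain, also because the Orm genes are close copies.

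Of the wider list of acute phase and NF-kB genes, 6 of 21 tested were lower (Saa1, Saa2, Saa3, Orm1, Orm2 and Cxcl2) and 0 higher by edgeR. At an unadjusted p under 0.05, 13 were lower and 0 higher, and DESeq2 called 8 lower and 0 higher. Over all 15884 genes tested, 2244 had an unadjusted p under 0.05 by edgeR, both directions together. Such counts, here and for the lists and families below, are to be read beside that share. The median of the list was -0.96 on the log2 scale, against 0.00 over all genes tested, and 18 of the 21 were below 0. Haptoglobin (Hp) differed by -0.41 (adjusted p = 0.571), C-reactive protein (Crp) by 0.16 (adjusted p = 0.847) and fibrinogen alpha (Fga) by 0.20 (adjusted p = 0.751), the latter pair with a lower mean CPM under the label DRE-null. Lipocalin 2 (Lcn2), an iron-siderophore carrier, differed by -1.01 (adjusted p = 0.129), was among the 8 that DESeq2 called, and differed by -1.10 under TCDD (adjusted p = 0.0383). Cxcl2, a chemokine that attracts neutrophils, differed by -2.60 (adjusted p = 0.0217). Wild-type 48 h replicate 3 held it at 48.6 CPM and wild-type 120 h replicate 3 at 17.8 CPM, where the other 3 libraries of each group held 0.79 to 2.07 CPM. Without either of these libraries, or without DRE-null 48 h replicate 3 or 4, Cxcl2 lost its call, with differences over the 32 fits from -2.73 to -1.68. It was also lost in 8 of the 14 other settings, those with DESeq2, no filter, the unmapped share, the 96 h libraries, without 48, 72 or 120 h and without those 5 libraries, so the call is uncertain. Cxcl5, a related chemokine, was highest in the same 2 libraries (73.5 and 135.6 CPM) and lost its call in 12 of the 32. The inducers Il6, Il1b and Tnf were near 0 in both labels, at mean levels of 0.0107, 0.0895 and 0.28 CPM in libraries labelled wild-type and 0.0525, 0.0405 and 0.0982 CPM in libraries labelled DRE-null. The highest of the 32 for Il1b (1.16 CPM) and Tnf (1.49 CPM) was wild-type 48 h replicate 3, the library that was also high for Cxcl2, Cxcl5 and Saa3.

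The other lists fixed for this tissue held few calls or none. Of interferon-stimulated genes 0 of 24 were called by edgeR (5 had an unadjusted p under 0.05, all 5 lower, and DESeq2 called 0), though 22 lay below 0 and the list median was -0.40. Antigen presentation genes had 0 of 16 called (3 at an unadjusted p under 0.05, all lower, and 0 by DESeq2), among them B2m, the light chain of MHC class I, at -0.52 (adjusted p = 0.0174, under the fold limit). Hepatocyte markers had 0 of 19 called (5 at an unadjusted p under 0.05, and 1 by DESeq2, Ttr), with a median of 0.12. Cholesterol synthesis (0 of 22, with 4 at an unadjusted p under 0.05 and 1 by DESeq2), lipogenesis (0 of 16, with 7 and 0) and the cell cycle (0 of 20, with 0 and 0) had no member called by edgeR.

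Nor did the remaining lists. They were gluconeogenesis and serine synthesis (0 of 13 by edgeR, with 2 at an unadjusted p under 0.05 and 0 by DESeq2), extracellular matrix and mesenchymal genes (0 of 25, with 3 and 1, Sparc), and fetal and progenitor genes (0 of 14, with 4 and 2, Gpc3 and Krt7). Stress lists gave 0 of 17 for the unfolded protein and integrated stress response (1 and 0), 0 of 12 for heat shock chaperones (0 and 0) and 0 of 13 for immediate early genes (4 and 0). The circadian clock gave 0 of 17 (2 and 0), the mitochondrial genome 0 of 13 (0 and 0), and metallothionein and iron genes 0 of 13 (1 and 1, Mt2). Of genes known to differ between C57BL/6 substrains 0 of 5 were called by edgeR (1 at an unadjusted p under 0.05, and 0 by DESeq2).

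**Figure D3:**
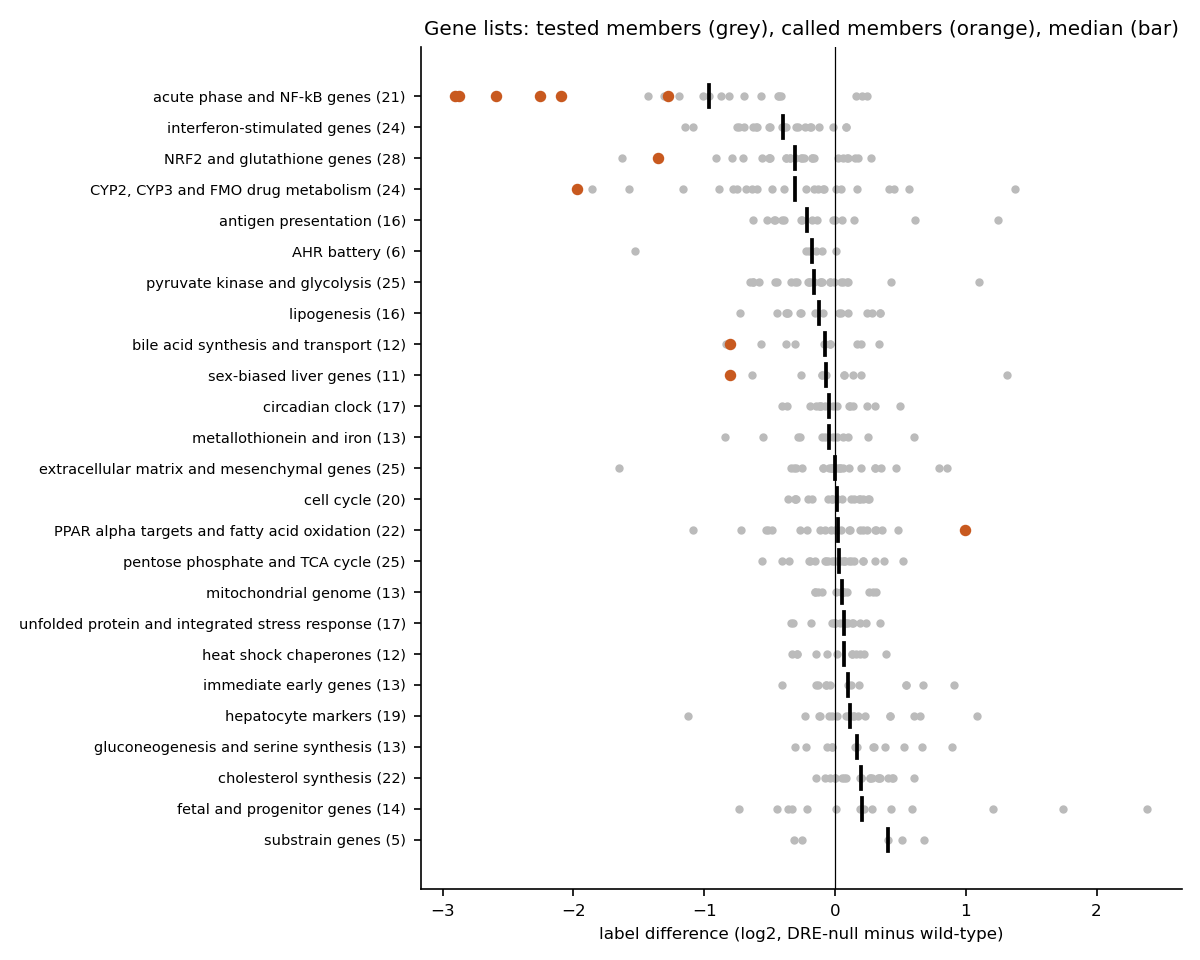
Label difference (x axis, log2, DRE-null over wild-type) of each tested member of the 25 gene lists (y axis, number tested in brackets), grey where not called and orange where called, with a black bar at the list's median. The acute phase and NF-kB list has the lowest median, -0.96, and 6 of the called members.

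Major urinary proteins gave more lower genes than any other list or family examined. Of the 15 Mup genes tested, 8 were called lower, 0 higher, and all 15 were below 0, with a median of -1.44. At an unadjusted p under 0.05, 13 were lower and 0 higher, and DESeq2 called 9 lower and 0 higher. Mup15 had 204, 157, 32.8 and 90.1 CPM at 24 h in libraries labelled wild-type and 18.8, 20.3, 6.5 and 9.02 CPM in those labelled DRE-null. At 48 h it had 95.2, 81, 4.91 and 32.2 against 8.56, 7.96, 5.27 and 2.93 CPM. The labels did not overlap at 24 h, and at 48 h wild-type replicate 3 fell within the DRE-null range. Mup15 differed by -2.56 ± 0.42 (SE, adjusted p = 0.00335), a call lost without 24 or 48 h and with the 96 h libraries, Mup11 by -1.97, Mup17 by -1.76 and Mup9 by -3.60 on the log2 scale. Mup7, the most abundant of the called members here, ran from 9.27 to 929 CPM in libraries labelled wild-type and from 7.87 to 412 CPM in those labelled DRE-null, and differed by -1.12 (adjusted p = 0.0477). The Mup genes are a cluster of near-identical copies, so the level of each single member is uncertain. Of the called ones, all but Mup7 kept their call in the 32 fits without 1 library. Cyp7b1 is the 1 member called of 11 sex-biased and of 12 bile acid genes tested. The male-biased gene Cyp7b1, an oxysterol hydroxylase, was also called lower (-0.80, adjusted p = 0.0365), but lost that call in 21 of the 32 fits.

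Moxd1, a relative of dopamine beta-hydroxylase that sits in the endoplasmic reticulum, had the largest difference of any called gene. Its CPM at 24 h was 21.5, 55.1, 0 and 3.75 in libraries labelled wild-type and 0.259, 0, 0 and 0.277 in those labelled DRE-null. At 48 h it was 7.36, 15.9, 0 and 0.455 against 0, 0.141, 0 and 0.23 CPM. Over the 4 hours Moxd1 was at 0 in 4 of the 16 wild-type libraries, each numbered replicate 3, and in 8 of the 16 DRE-null libraries. In all, 10 of the 16 wild-type libraries were above the highest DRE-null library, so the label as a whole did not separate. The log2 difference was -5.54 ± 1.00 (SE, adjusted p = 0.00589), with a range of -5.89 to -4.97 without 1 library. It lost the call without 24 or 48 h and with the 96 h libraries added, could not be tested in the sums by number, and had an adjusted p of 0.533 by limma-voom with the number as a random block.

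Cpb2 encodes a plasma carboxypeptidase, made by hepatocytes, that slows the breakdown of fibrin clots. At 72 h its CPM was 160, 211, 1035 and 137.3 in libraries labelled wild-type and 61.1, 78.2, 73.3 and 69.1 in those labelled DRE-null. At 120 h it was 89.2, 459, 77.1 and 74.2 against 40.4, 40.5, 25.6 and 42.5 CPM. The labels did not overlap at 48, 72 and 120 h, and the highest library was a different one each time. The difference was -1.84 ± 0.31 on the log2 scale (SE, adjusted p = 0.00335), a fold of 3.57, and of the same 46 settings the call was lost only without 48 h (adjusted p = 0.069 by limma-voom with the random block).

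Serpinb9c belongs to the mouse family related to SERPINB9, an inhibitor of granzyme B. It was low but separated the labels at all 4 hours: at 24 h it had 4.57, 4.59, 4.05 and 3.75 CPM in libraries labelled wild-type and 0.129, 2.41, 2.13 and 2.15 CPM in those labelled DRE-null. At 72 h the values were 6.27, 6.75, 17.2 and 5.03 against 2.07, 2.48, 1.45 and 2.59 CPM. The log2 difference was -1.62 ± 0.28 (SE, adjusted p = 0.0037), and the call was lost without 48 h and without 72 h. All 7 Serpinb9 genes tested lay below 0 and 3 were called lower (Serpinb9c, Serpinb9d and Serpinb9f), but these are close copies too, so their separate levels are uncertain.

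Among drug metabolism genes, Cyp3a11, the main CYP3A enzyme of mouse liver, was lower. At 48 h its CPM was 111.8, 25.7, 26.5 and 41.1 in libraries labelled wild-type and 10.4, 12.7, 5.15 and 5.46 in those labelled DRE-null. At 24 h the labels overlapped, with 438, 189, 635 and 299 against 180, 236, 167 and 53.6 CPM. At 120 h it stood at 0.585 to 6.53 CPM in libraries labelled wild-type and 0.379 to 1.6 CPM in those labelled DRE-null. The difference was -1.98 ± 0.34 (SE, adjusted p = 0.0037), a fold of 3.94, and the call was lost without 48 h and with the 96 h libraries. It was the 1 member called of 24 tested CYP2, CYP3 and FMO genes, whose median was -0.30, and DESeq2 called 3 (Cyp2a5, Cyp2c29 and Cyp3a11, all lower).

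Gstp2, a pi-class glutathione transferase, was the 1 member called of 28 NRF2 and glutathione genes. At 48 h it had 393, 114.8, 138.6 and 167 CPM in libraries labelled wild-type and 51.8, 56.5, 41.5 and 28.8 CPM in those labelled DRE-null. At 72 h it had 123.7, 170, 230 and 104.5 against 48.6, 28.2, 40.6 and 74 CPM. The labels were apart at these 2 hours and overlapped at 24 h and 120 h. Gstp2 differed by -1.35 ± 0.27 (SE, adjusted p = 0.0133), a call lost without 48 h, without 72 h and without those 5 libraries. Of the 6 UGT1A genes tested, which share exons and so share counts, Ugt1a9 and Ugt1a7c were called lower (-2.36 and -1.55), and the Ugt1a9 call was lost in 17 of the 32 fits without 1 library. Apoa4, an apolipoprotein of triglyceride-rich particles, differed by -1.50 ± 0.30 on the log2 scale (SE, adjusted p = 0.0133), a call lost without any 1 of the 4 hours and with the 96 h libraries.

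Several lower genes are known from immune or matrix cells. Lcp1, an actin-bundling protein of leukocytes, ran from 72.1 to 259 CPM (median 106) in libraries labelled wild-type and from 34.8 to 153 CPM (median 63.7) in those labelled DRE-null. It differed by -0.93 ± 0.18 (SE, adjusted p = 0.00809), a call lost without 24, 48 or 72 h. Ctsc, a lysosomal protease, had medians of 94.5 and 50.8 CPM and differed by -0.82 ± 0.15 (SE, adjusted p = 0.00562), a call lost without 48 or 72 h. Nid1, a basement membrane protein, had medians of 1498 and 1025 CPM and differed by -0.77 (adjusted p = 0.0297), a call lost in 22 of the 32 fits without 1 library. Summed levels of 14 macrophage markers were alike, 29.1 to 227 CPM (median 112.7) in libraries labelled wild-type and 58.3 to 420 CPM (median 114.2) in those labelled DRE-null, with none of the 14 at 0 throughout, and 0 of 13 tested were called by edgeR (1 at an unadjusted p under 0.05, and 0 by DESeq2). Markers of stellate cells (0 of 10 called by edgeR, with 1 at an unadjusted p under 0.05 and 0 by DESeq2), cholangiocytes (0 of 6, with 2 and 1, Krt7), lymphocytes (0 of 2, with 0 and 0), neutrophils (0 of 1, with 0 and 0) and erythroid cells (0 of 2, with 0 and 0) held no call. The pan-leukocyte gene Ptprc was near 0 in both labels, at mean levels of 0.342 and 0.360 CPM.

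The higher genes were smaller in size and mostly of moderate level. Atoh8, a basic helix-loop-helix transcription factor, had the largest difference. At 48 h it had 1.58, 6.74, 6.27 and 6.01 CPM in libraries labelled wild-type and 3.78, 9.38, 26.5 and 59.3 CPM in those labelled DRE-null. At 72 h it had 2.45, 2.43, 8.35 and 8.95 against 15.7, 73.6, 17.3 and 5.24 CPM, and at 120 h 12.3, 13.6, 15.7 and 13.2 against 33, 35.6, 15.1 and 40 CPM. At 48, 72 and 120 h 1 DRE-null library lay within the wild-type range and the other 3 above it. Its log2 difference was 1.65 ± 0.35 (SE, adjusted p = 0.0217), a fold of 3.13, and the call was lost without any 1 of the 4 hours.

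Arhgap36, known to act on protein kinase A and Hedgehog signaling, was higher by 1.37 ± 0.27 (SE, adjusted p = 0.0133), a call lost without any 1 of the 4 hours. At 72 h it had 1.27, 0.8294, 0.713 and 0.585 CPM in libraries labelled wild-type and 1.62, 2.94, 4.52 and 1.89 CPM in those labelled DRE-null, and at 120 h 5.15, 1.83, 0.545 and 4.11 against 10.5, 5.36, 12.4 and 14 CPM. The labels were apart at both hours. Arhgef17, a guanine nucleotide exchange factor, was apart at 48, 72 and 120 h. Its values at 72 h were 9.11, 9.66, 4.58 and 13.8 CPM against 23, 16.3, 14.1 and 21.3 CPM, and at 120 h 27.6, 9.89, 20.8 and 27.5 against 38.5, 32.1, 31.9 and 37.5 CPM. It was higher by 0.84 ± 0.19 (SE, adjusted p = 0.0307), but lost its call in 11 of the 32 fits without 1 library, with a range of 0.79 to 0.99.

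Further higher genes that kept their call in each of those 32 fits were Pear1, an endothelial and platelet receptor (1.01), Palm, a membrane protein of cell processes (1.00), Nckap5l and Soga1, both bound to microtubules (0.98 and 0.92), Lamb2, a laminin chain of basement membrane (0.78), Slc44a2, a choline transporter (0.66), and Zxdc, a zinc finger factor (0.66 on the log2 scale). Lamb2 ran from 2.74 to 59.7 CPM (median 19.6) in libraries labelled wild-type and from 4.04 to 114.4 CPM (median 35.7) in those labelled DRE-null, so the labels overlapped widely, and its call was lost without 48, 72 or 120 h and with the 96 h libraries. Acot1, a fatty acyl-CoA thioesterase and PPAR alpha target, was the 1 member called of 22 in its list (0.99, adjusted p = 0.0465), a call lost in 25 of the 32 fits. Endothelial markers also had positive label differences: all 12 tested lay above 0, with a median of 0.51. Their summed level ran from 105.4 to 355 CPM (median 201) in libraries labelled wild-type. In those labelled DRE-null it ran from 103.4 to 781 CPM (median 308), with none of the 12 at 0 throughout. None was called by edgeR (0 of 12, with 5 at an unadjusted p under 0.05, all 5 higher, and 2 by DESeq2, Gpr182 and Tie1), and their part in the higher genes was not tested.

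Ribosomal protein pseudogenes and related loci gave the smallest adjusted p-values. Rps6-ps4, a copy of the gene for ribosomal protein S6, had 4.08, 4.7, 4.11 and 5.07 CPM at 24 h in libraries labelled wild-type and 18.9, 6.82, 11.2 and 13.3 CPM in those labelled DRE-null. At 120 h it had 1.44, 2.92, 2.06 and 1.25 against 5.87, 3.71, 3.44 and 5.85 CPM. The labels did not overlap at any of the 4 hours. Its log2 difference was 1.43 ± 0.17 (SE, adjusted p = 7.90e-06) and stayed between 1.374 and 1.498 without 1 library. Gm2000, a predicted gene, behaved alike at 1.36 ± 0.16 (SE, adjusted p = 7.90e-06), with 2.13, 2.34, 3.1 and 2.19 CPM at 48 h against 6.57, 5.56, 9.57 and 9.99 CPM. These 2 genes kept their call under 32 settings without 1 library, 14 others and the random block by number, but not in the sums by number, where each had an adjusted p of 0.223 by edgeR. Most of the class did not move with them: of 70 ribosomal protein pseudogenes tested, 2 were called higher (Rps6-ps4 and Rpl19-ps11) and 0 lower by edgeR, 6 had an unadjusted p under 0.05, all 6 higher, and DESeq2 called 3, all higher (Rpl19-ps11, Rpl3-ps1 and Rps6-ps4). Of 83 ribosomal protein genes 0 were called by edgeR (10 at an unadjusted p under 0.05, and 0 by DESeq2). Pseudogene counts are uncertain, since read pairs of the parent gene that carry a difference can land on the copy.

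The called genes differed in base composition, and so did the libraries. The median GC content was 54% for higher genes, 46.7% for lower genes and 49.6% for all tested. A GC contrast was computed per library as the median deviation of GC-rich genes (GC content over 55.3%) minus that of GC-poor genes (under 43.8%) from the hour's mean. It ran from -1.06 to 0.55 (median -0.20) on the log2 scale in libraries labelled wild-type and from -1.16 to 1.8 (median 0.54) in those labelled DRE-null. With this contrast as a second covariate, 26 genes were called higher and 84 lower, and 17 of the 34 higher and 57 of the 58 lower genes kept their call. Atoh8, Arhgap36, Arhgef17, Pear1, Palm, Lamb2, Rps6-ps4 and Gm2000 were among those kept, while Acot1, Slc44a2 and Zxdc were not.

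**Figure D4:**
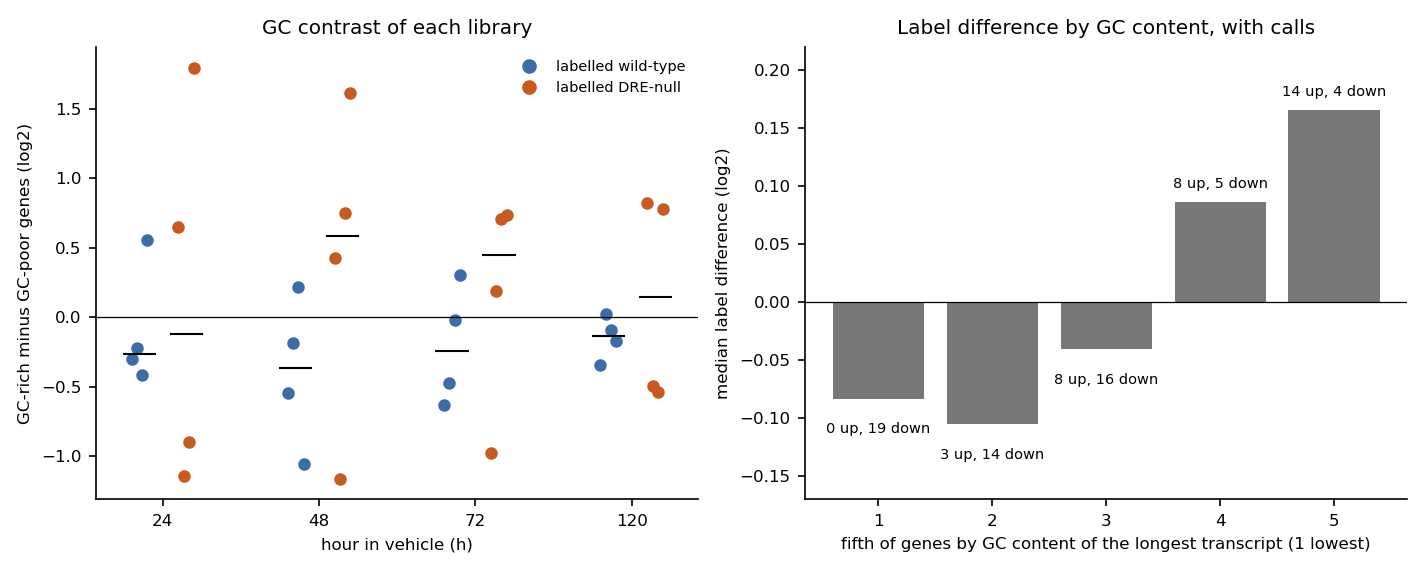
Left, GC contrast of each library (y axis, log2) by hour in vehicle (x axis), with blue for libraries labelled wild-type, orange for libraries labelled DRE-null and a bar at each group's median. Right, median label difference (y axis, log2) in 5 equal classes of genes by GC content (x axis, 1 lowest), with the numbers called up and down. The median runs from -0.08 in the lowest class to 0.17 in the highest, which holds 14 of the higher and 4 of the lower genes.

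Pkm itself did not differ by label beyond the spread of the libraries. Its CPM was 279, 171, 1398 and 286 at 48 h in libraries labelled wild-type and 685, 265, 638 and 508 in those labelled DRE-null. At 72 h it was 438, 414, 2468 and 554 against 446, 505, 498 and 784 CPM. Wild-type 48 h replicate 3 and wild-type 72 h replicate 3 were the highest of the 8 libraries of their hour. The log2 difference across hours was 0.10 ± 0.32 (SE, adjusted p = 0.933), while the mean CPM went the other way, 467 in libraries labelled wild-type and 399.9 in libraries labelled DRE-null. Pklr differed by -0.58 ± 0.25 (SE, adjusted p = 0.290). Of 25 pyruvate kinase and glycolysis genes 0 were called by edgeR (4 at an unadjusted p under 0.05, and 1 by DESeq2, Ldhb), and of 25 pentose phosphate and TCA cycle genes 0 (4 at an unadjusted p under 0.05, and 0 by DESeq2). Suclg2, a subunit of succinyl-CoA ligase, had an adjusted p of 0.0384 at a log2 difference of -0.56, under the fold limit. Of the 20 protein coding genes around Pkm, 10 on each side, 15 were tested and 0 were called by edgeR (0 at an unadjusted p under 0.05, and 0 by DESeq2), with log2 differences from -0.21 to 0.46.

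The aryl hydrocarbon receptor battery was not called either: 0 of 6 tested by edgeR, 0 at an unadjusted p under 0.05 and 0 by DESeq2. Cyp1a1 differed by -1.53 ± 1.12 (SE, adjusted p = 0.546), with the library at 3799 CPM among those labelled wild-type, and Cyp1a2 by 0.01 ± 0.59 (SE). Of 44 tested genes that the study's text names, 0 were called by edgeR (7 at an unadjusted p under 0.05, and 1 by DESeq2, Ldhb).

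At single hours no gene was called by edgeR. At 24, 48, 72 and 120 h, each with 4 against 4 libraries in a fit that shared the spread, 0 genes were called higher (0% of all) and 0 lower (0% of all). In simulated counts with a log2 change of 1, this fit recovered from 3.09% (48 h) to 6.19% (24 and 72 h) of changed genes. The counts of 0 thus do not show that no gene differed. At an unadjusted p under 0.05 there were 1419, 1161, 738 and 294 genes, and DESeq2 called 52 higher and 65 lower, 7 and 14, 3 and 7, and 3 and 11. The count at 24 h was not stable: without DRE-null 24 h replicate 3 it was 88 (20 higher and 68 lower), without replicate 2 it was 3, and without replicate 1, or without wild-type 48 h replicate 3, it was 1. Whether the label difference changed between hours was tested as an interaction, which called 0 genes (0% of all), with 508 at an unadjusted p under 0.05 and 10 by DESeq2's likelihood ratio test. Orm2 had differences of -5.02, -4.19, -0.64 and -1.48 at the 4 hours (adjusted p = 1 for the interaction by edgeR), and Saa1 -2.79, -2.46, -0.72 and -2.33.

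Libraries outside the comparison gave the same measure without sharing any library, though the sources used here do not say whether they came from other animals, and Moxd1 followed the library number in them as in vehicle. In the 32 TCDD libraries (10 nM) at the same hours, 211 of 15492 genes were called, 75 of them higher (0.484% of all) and the rest lower (0.878% of all) in libraries labelled DRE-null. Of the 58 genes lower in vehicle, 57 were tested there, all 57 had the same sign and 37 were called lower, which is 63.8% of the 58 and 27.8% of the lower calls there among genes tested in both. The 37 include Moxd1 (-5.07), Saa3 (-2.68), Orm2 (-2.18), Mup15 (-1.90), Cyp3a11 (-1.51), Saa1 (-1.49), Serpinb9c (-1.33) and Cpb2 (-1.30 on the log2 scale). Of the 34 higher genes, 28 had the same sign, 6 were called higher, 17.6% of the 34 and 8.11% of the 74 higher calls there among genes tested in both, and 4 were called lower instead. Those 4 were Rps6-ps4 (-0.66), Gm2000 (-0.65), Gm12191 (-0.69) and ENSMUSG00002075524 (-0.98), so the genes with the smallest adjusted p in vehicle had the opposite sign under TCDD. That change of sign was not tested as a difference between the treatments. Without wild-type TCDD 72 h replicate 4, the library low in Cyp1a1, 208 genes were called, 90 of them higher, and 38 of the 58 were called lower.

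In the 32 vehicle libraries at 2, 4, 8 and 12 h, 21 of 14461 genes were higher (0.145% of all) and 65 lower (0.449% of all). Of the genes called in the late hours, 11 of the 58 lower (19%, and 17.5% of the 63 lower calls there among genes tested in both) and 4 of the 34 higher (11.8%, and 19% of the 21 higher calls there) were called in the same direction. Moxd1 differed by -5.08 there, Mup15 by -2.33, Apoa4 by -1.79 and Saa1 by -1.32, whereas Serpinb9c (0.18, adjusted p = 0.951) and Cpb2 (-0.19, adjusted p = 0.621) were not called.

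The 8 vehicle libraries at 96 h gave 0 calls (0% of all) by edgeR, with 779 genes at an unadjusted p under 0.05 and 10 calls by DESeq2. Of the 58 lower genes, 23 had the same sign and 30 the opposite sign there. The library labelled DRE-null 96 h replicate 4 goes against the other 3 of its label, with Alb at 95113 CPM (9963 to 13748 in the others), Vim at 20.8 CPM (1526 to 2396), Saa1 at 1723 CPM (20.3 to 86.5) and Cyp3a11 at 915 CPM (2.03 to 4.46). Wild-type 96 h replicate 3 held Cyp1a1 at 1949 CPM. Without DRE-null 96 h replicate 4, a fit added after seeing the data, edgeR still called 0 genes. In that fit 42 of the lower genes had the same sign and 11 the opposite. Saa1 and Cyp3a11, high in the library left out, are themselves among the lower genes, so the change in signs follows in part from that choice. Mup15 then differed by -1.57 and Rps6-ps4 by 1.43. The lower genes of opposite sign included Cyp3a11, Lcp1 and Orm1. Of the 34 higher genes, 33 were tested in that fit, 24 with the same sign and 9 with the opposite. Lamb2, Palm, Nckap5l, Slc44a2 and Arhgef17 were among those 9.

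**Figure D5:**
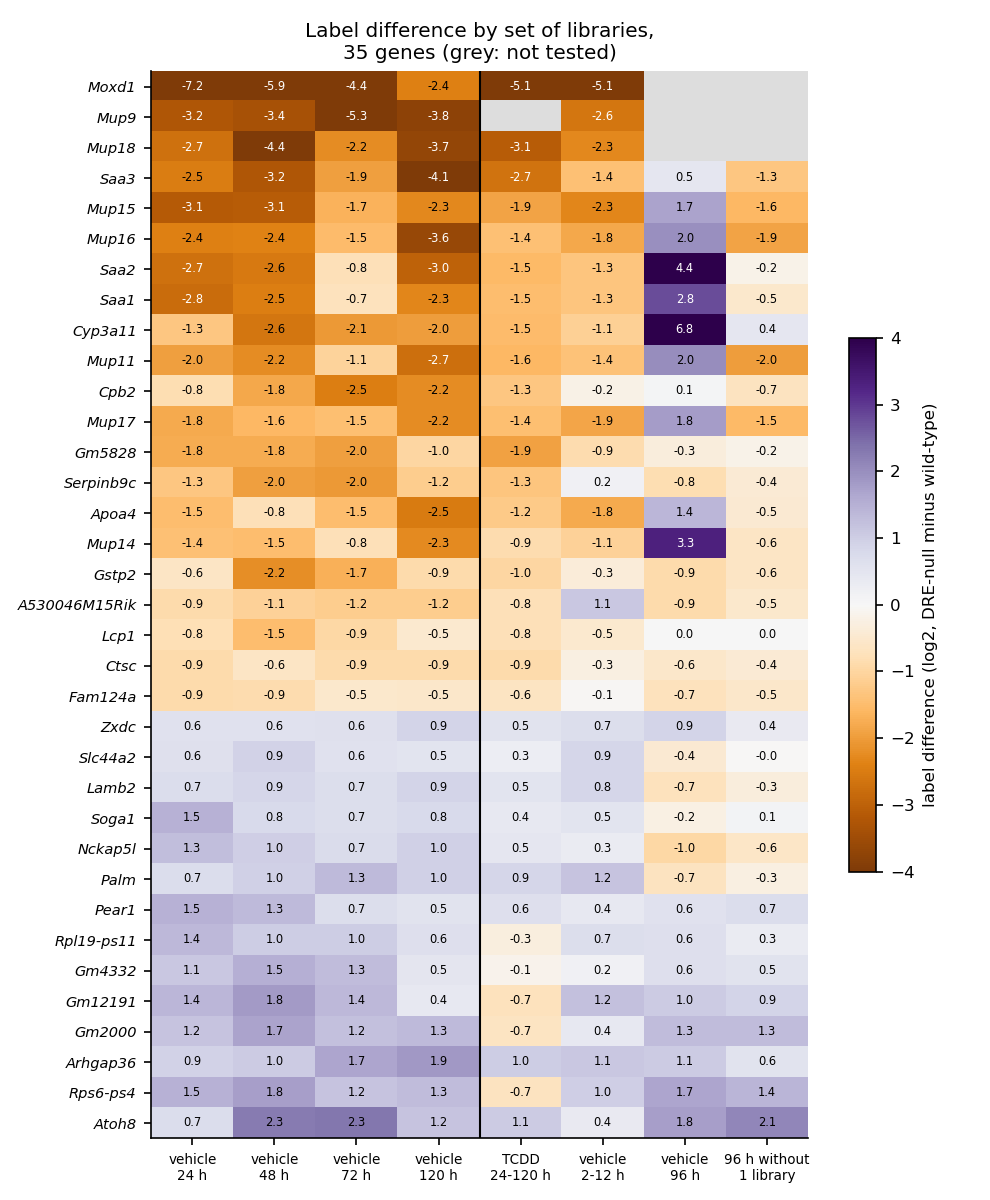
Label difference (colour and number, log2, DRE-null over wild-type; orange lower, purple higher, grey not tested) of the 35 genes called in every fit without 1 library (rows), in vehicle at each of the 4 hours and in 4 sets of libraries outside the comparison (columns). Lower genes stay lower under TCDD and in most squares at 2 to 12 h, while Rps6-ps4, Gm2000 and Gm12191 turn from above 0 in vehicle to -0.7 under TCDD.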

How the data were processed

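RNA-Seq libraries of primary mouse hepatocytes were read as the authors deposited them: 1 table per library of counts of read pairs per gene, made per the labels and methods with Trimmomatic 0.39, FastQC 0.11.3 and STAR 2.7 on GRCm39, uniquely mapped pairs only. DESeq2 is also named there. The deposited counts without strand were used, so antisense and overlapping genes cannot be told apart. Lines that name no gene (unmapped, multimapping, no feature, ambiguous) held 19.4% to 29.8% of pairs and stayed out of library sizes and tests. Files hold 55359 genes, of which 52083 matched a symbol by gene ID in a GRCm38 annotation, which was used only for symbols, gene type, gene order and GC content (99.6% of genes tested had one).

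The members, gene lists and tests were chosen with earlier results of these data known. Groups came from the labels alone. Within each comparison genes passed edgeR's filterByExpr (count minimum 10, total minimum 15), were scaled by TMM and were tested by edgeR's robust quasi-likelihood F test (edgeR 4.0.16, R 4.3.3) with hour as a factor, and p-values were Benjamini-Hochberg adjusted over all genes tested. A call needed an adjusted p under 0.05 and a change of 1.5-fold or more. Differences are log2 of DRE-null over wild-type, and the SE is the absolute log2 difference over the square root of F. CPM are the deposited counts scaled to equal library size by edgeR. A model with 1 group per label and hour gave each hour and the interaction. The steps were tested on simulated data.

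The rule for named genes took called genes whose labels did not overlap at 3 or 4 hours, with a mean of at least 1 CPM in 1 label and without predicted genes and pseudogenes, genes the study's text names, list members and neighbours of Pkm. Genes named for a call in all 32 fits without 1 library, gene families and pseudogenes were chosen after their values were seen. Alternatives were RLE scaling, DESeq2 1.42.0, no filter, no fold limit, covariates, 1 surrogate variable (sva 3.50.0), adding 96 h, and leaving out each library or hour. The GC contrast as covariate (from 2611 genes with a mean log2 CPM above 4, classes cut at 43.8% and 55.3% GC), the fit without 5 libraries, limma-voom (limma 3.58.1) with and without the number within a label as a random block, the sums by number, the TCDD fit without 1 library and the 96 h fit without 1 library were added after seeing the data. Numbers follow the order of deposit and were not used to pair the labels. Library totals of 15550949 to 30719161 limit precision for low genes, and reads carry no molecular identifiers.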

Additional observations from a re-analysis of the deposited data

Results flagged for a closer look

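For 26 genes of the comparison, each group of 4 libraries whose highest value reached 1 CPM was checked for a library set apart from the other 3 by a gap above Dixon's 95% critical value, and 26 of 188 groups had one. Chance marks about 1 in 20 groups of independent, normally distributed values. The check used CPM without a log scale, and several of these genes moved together or were chosen after their values were seen. Whether the number marked exceeds chance therefore cannot be told. Acute phase genes were high in wild-type 120 h replicate 2, with Saa1 at 81.6 CPM (8.77 to 20.6 in the others), Saa2 at 43.97 CPM (2.13 to 3.10), Orm1 at 215 CPM (20.1 to 30.5) and Orm2 at 17.95 CPM (3.04 to 4.37). That library also held Moxd1 at 1.24 CPM (0 to 0.195) and Cpb2 at 459 CPM (74.2 to 89.2).

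Inflammatory genes were high in other libraries. Wild-type 48 h replicate 3 held Cxcl2 at 48.6 CPM, Cxcl5 at 73.5 CPM, Hcar2, the niacin receptor, at 2.52 CPM (0.304 to 0.435) and Pkm at 1398 CPM (171 to 286). Wild-type 120 h replicate 3 held Cxcl2 at 17.8 CPM, Cxcl5 at 135.6 CPM and Saa3 at 94.8 CPM (1.798 to 15.97), with Lcp1 low at 75.01 CPM (80.6 to 81.4). Wild-type 72 h replicate 3 held Cpb2 at 1035 CPM (137.3 to 211), Cyp3a11 at 22.5 CPM (2.15 to 5.56), Serpinb9c at 17.2 CPM (5.03 to 6.75) and Pkm at 2468 CPM (414 to 554).

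Single genes stood apart in further libraries. Cyp1a1 was at 3799 CPM in wild-type 48 h replicate 1, which also held Atoh8 at 1.58 CPM (6.01 to 6.74), and at 65.2 CPM in wild-type 24 h replicate 4 (0.839 to 2.49). Moxd1 was at 3.32 CPM in wild-type 72 h replicate 2 (0 to 0.490). Among libraries labelled DRE-null, Cpb2 was at 146 CPM in 48 h replicate 1 (74.5 to 81.6) and at 25.6 CPM in 120 h replicate 3 (40.4 to 42.5), Ctsc at 41.4 CPM in 48 h replicate 4 (76.9 to 79.2) and Serpinb9c at 0.129 CPM in 24 h replicate 1 (2.13 to 2.41).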

How the results depend on the processing

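The count of 92 genes called across the hours changed by more than 1.5 times with DESeq2 (214), no filter on low counts (49), a covariate for the share of no-feature pairs (162), 1 surrogate variable (145), the 96 h libraries added (48), without 24 h (17), 48 h (2), 72 h (16) or 120 h (18), without the 5 libraries that stood apart (42), with limma-voom and the number within a label as a random block (5), and with libraries of the same number summed over the hours (0); the 4 without an hour and the sums also hold fewer samples, and for the others the cause was not tested. It was 79 with RLE scaling, 72 with the unmapped share, 63 with limma-voom and 110 with the GC contrast as covariate, and 40 to 98 without 1 library. At 24, 48, 72 and 120 h DESeq2 called 52 higher and 65 lower, 7 and 14, 3 and 7, and 3 and 11 genes where edgeR called 0, and leaving out 1 library gave 0 to 20 higher and 0 to 68 lower at 24 h and 0 at the other hours. The interaction gave 10 by DESeq2's likelihood ratio test. Outside the comparison, DESeq2 called 420 genes against 211 under TCDD, 201 against 86 at 2 to 12 h and 10 against 0 at 96 h. All 92 genes kept their sign under RLE, DESeq2, no filter, the covariates and without 1 library. Pkm, not called, at 0.10, turned to -0.15 without 24 h, -0.13 with the GC contrast and -0.13 in the sums, and ran from -0.019 to 0.36 without 1 library, below 0 once (without DRE-null 24 h replicate 1). Under TCDD the total was 208 without the library low in Cyp1a1. No paired analysis was possible because the labels give no replicate number that ties a DRE-null to a wild-type library.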
